A study of Mus musculus with 6 samples.

Results

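The core of phosphoinositide 3-kinase (PI3K) and AKT signalling was followed through 8 genes in 6 mouse mammary cell lines. The 8 genes were taken by symbol from the deposited count table: the catalytic subunit genes Pik3ca and Pik3cb, the regulatory subunit genes Pik3r1 and Pik3r3, the kinase genes Akt1 and Akt2, and the adaptor genes Irs1 and Irs2. All 8 had a row among the 23449 genes of the table, and all 8 were among the 13698 genes that passed the filter on low counts. Lines named 16IC (genotype 16IC/WT, 3 lines) were set against lines named EIC (genotype EIC/WT, 3 lines). All 6 lines were female, of the FVB/N strain and of mammary origin, and all grew with 10 ug/mL doxycycline, 10% serum, pituitary extract, insulin and EGF. The labels do not spell the names out. As general background on these models, the drug induces the splice form of HER2 (ErbB2) that lacks exon 16 in 16IC and the wild-type receptor in EIC. The sources used here give neither the species nor the promoter of the transgenes, nor how many tumours or clones stand behind a line, and no culture free of the drug was analysed. The lines of a group are the replicates, and p-values measure the spread between these lines. Whatever else differs between the lines of 16IC and of EIC cannot be told apart from the receptor they carry. The lines 16IC 1, 16IC 2 and 16IC 3 carry the titles 16IC_1984, 16IC_4982 and 16IC_7391, and EIC 1, EIC 2 and EIC 3 carry EIC_4026, EIC_NT and EIC_7559.

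As background, receptor tyrosine kinases and the insulin receptor recruit PI3K either directly or through the IRS adaptor proteins. Class IA PI3K is a dimer of a catalytic and a regulatory subunit that makes a membrane lipid, phosphatidylinositol trisphosphate. AKT kinases bind that lipid and, once phosphorylated, act on mTOR complex 1, on GSK3 kinases and on FOXO transcription factors, which AKT keeps out of the nucleus. In mammary epithelium the pathway is known as a main output of HER2 with its partner receptor ERBB3, and Pik3ca is often mutated in human breast cancer. The activity of these enzymes is set mostly by lipids and phosphorylation, which messenger RNA counts do not measure. In bulk RNA, fewer cells of a kind and less RNA per cell cannot be told apart. The sources used here do not say whether counting used strand, so reads of antisense partners may be included.

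Library totals ran from 15621563 to 16091846 counts in 16IC and from 16742109 to 17468498 counts in EIC. The 8 genes were well counted, with 119 counts (Pik3r3 in EIC 1) to 8311 counts (Pik3r1 in 16IC 3) per line. The line 16IC 3 stood apart: across tested genes its Spearman correlation was 0.874 with 16IC 1 and 0.880 with 16IC 2, which reached 0.989 with each other, and 0.871 to 0.885 with the EIC lines. EIC 2 was also less like its group, at 0.925 with EIC 1 and 0.917 with EIC 3, against 0.979 between those. The luminal keratin gene Krt8 was counted in every line, at 580 to 2652 CPM (counts scaled to a common library size) in 16IC and 1349 to 1929 CPM in EIC, while another, Krt19, had 0 counts in 16IC 1 and 16IC 2. The luminal marker list of 10 genes summed to 9952, 9640 and 1765 CPM in 16IC 1 to 3, against 2593 to 3579 CPM in EIC. The list was not uniform: Epcam, an epithelial adhesion gene, had 1160, 1345 and 51.1 CPM in 16IC 1 to 3, against 0.456 to 3.79 CPM in EIC, so that 16IC 3 lay above EIC there and below it in the sum. In Esrp1 (25.8 CPM), Grhl2 (64.0 CPM), Elf5 (2.79 CPM) and Ovol2 (0.195 CPM) 16IC 3 also lay above every EIC line. In Krt8, Krt18 and Krt19 it lay below every EIC line, and in Cdh1 and Krt7 within them. The mesenchymal list of 9 counted genes summed to 125, 206 and 2222 CPM in 16IC 1 to 3, against 3180 to 5268 CPM in EIC. Most of each sum was Vim, with 108, 182 and 2099 CPM in 16IC 1 to 3, against 2684 to 4398 CPM in EIC. This list was not uniform either. Sparc had 1.87, 7.40 and 31.1 CPM in 16IC 1 to 3, against 282 to 722 CPM in EIC. Col1a1 went the other way, with 3.13, 4.77 and 4.99 CPM in 16IC 1 to 3, against 0.513 to 1.99 CPM in EIC. Markers of other cell types were low, with 0 to 5 counts of the leukocyte gene Ptprc in any line, 12.5 to 19.1 CPM in 16IC and 14.6 to 47.7 CPM in EIC over 5 counted leukocyte genes, Cd68 the largest of them in every line. The endothelial list of 5 genes summed to 0.181 to 1.36 CPM in 16IC and 0.601 to 4.16 CPM in EIC. The basal list of 8 genes summed to 1.77 to 48.4 CPM in 16IC and 0.570 to 22.0 CPM in EIC. Its larger sums came from different genes: Oxtr in 16IC 3 (46.4 CPM), Krt14 in 16IC 1 (13.1 CPM), and Trp63 and Oxtr in EIC 2 (11.5 and 10.3 CPM). Krt5, Acta2, Myh11 and Cnn1 were under 1 CPM in every line. Of 5 adipocyte genes 1 had a row, Fabp4, with 0.184 to 1.88 CPM in 16IC and 0.241 to 42.1 CPM in EIC. The part of these cell states in the results below was not tested.

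Of the 8 genes, 0 passed an adjusted p under 0.05 by the quasi-likelihood test of edgeR (Benjamini-Hochberg adjustment over all tested genes), where 335 of all tested genes passed (2.45%, of which 1.25% higher and 1.2% lower in 16IC). At an unadjusted p under 0.05 there were 3 of the 8 (Pik3cb, Pik3r3 and Irs1), against 22.7% of all tested genes. Those 3 were also the 3 whose 16IC lines all lay above all EIC lines, as in 17.2% of tested genes, and Pik3ca and Akt2 had all 16IC lines below all EIC lines, as in 14.2%, so that 5 of the 8 did not overlap against 31.4% of tested genes. The other 3, Pik3r1, Akt1 and Irs2, overlapped between the groups. DESeq2 called Pik3cb, Pik3r3 and Irs1 (adjusted p = 0.000198, 0.0194 and 0.0428) among 15.3% of tested genes, and limma-voom called 0 of the 8 among 2.1%. Without 16IC 3 edgeR called Pik3cb alone (adjusted p = 0.0110) among 13.4% of genes. Without EIC 2 it called Irs1 alone of the 8 (adjusted p = 0.0451), where it called 282 of 14391 genes in all. The median log2 fold change over the 8 genes was 0.63, with 5 positive, against -0.0044 over all tested genes, with 6807 positive and 6891 negative. The 5 included Akt1 and Pik3r1, which overlapped between the groups, and Pik3r1 was negative without 16IC 3 (-0.67).

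Of the 8 genes, the authors' deposited table has 2, Pik3cb and Pik3r3, at an adjusted p under 0.05, against 8.63% of its 23449 genes. That share counts genes that failed the filter on low counts, which the shares of tested genes leave out.

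**Figure D1:**
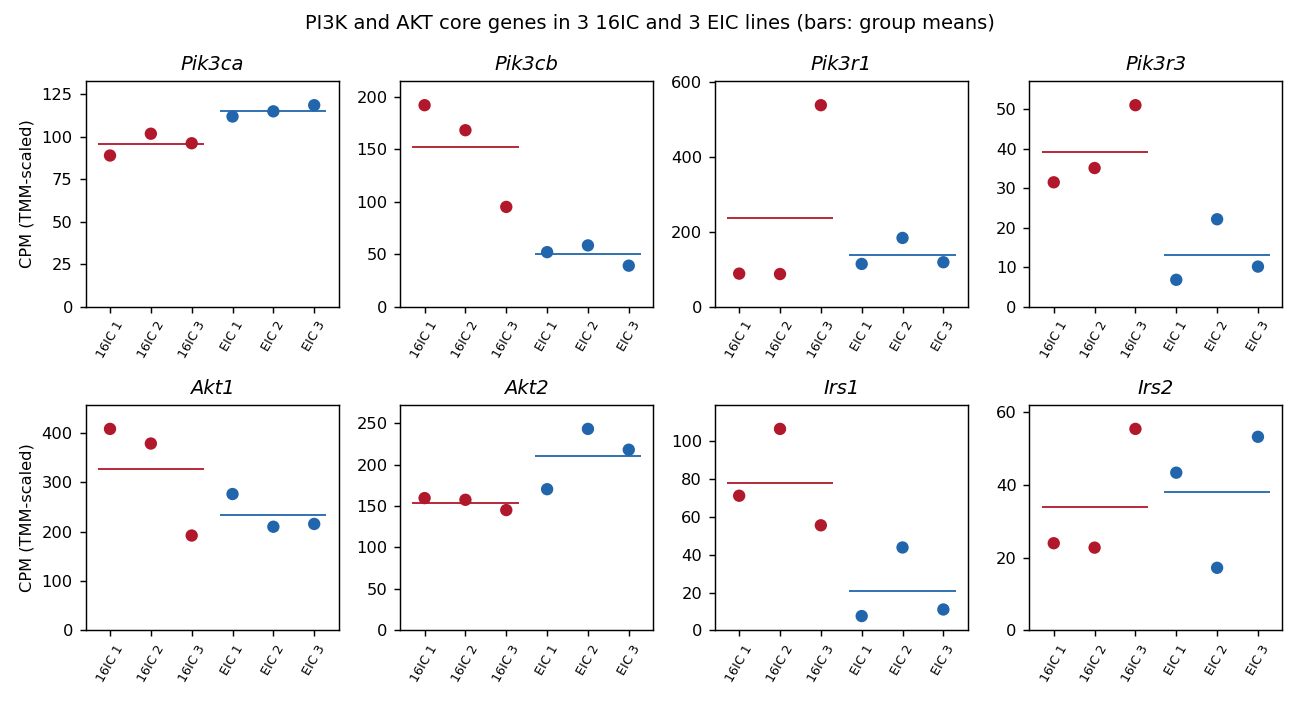
Levels of the 8 genes in CPM of the TMM-scaled library (vertical axes, linear from 0), with 1 point per line, 16IC in red and EIC in blue, and a bar at each group's mean. Pik3cb, Pik3r3 and Irs1 lie higher in all 3 16IC lines than in any EIC line, and the point of 16IC 3 stands far above all others for Pik3r1 (539 CPM).

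Of the catalytic subunit genes, Pik3cb was higher in every 16IC line and Pik3ca slightly lower, and neither passed the test. Pik3cb encodes the beta catalytic subunit, which G protein-coupled receptors as well as receptor tyrosine kinases can engage. Pik3cb (ENSMUSG00000032462, chromosome 9, 99036654 to 99140621, minus strand, mm10) had 192, 168 and 95.2 CPM in 16IC 1 to 3, against 52.0, 58.4 and 39.0 CPM in EIC 1 to 3. Every 16IC line was above every EIC line, and 16IC 3, at 1.91 times the EIC mean, was the lowest of the 16IC lines. The log2 fold change came to 1.61 (SE 0.31, edgeR adjusted p = 0.0580), a 3.05-fold difference that did not pass the threshold. In the authors' deposited table the same gene has a log2 fold change of 1.59 and an adjusted p of 0.00118.

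Pik3ca, the gene of the alpha catalytic subunit that growth-factor receptors mainly use, showed a narrower range. Pik3ca (ENSMUSG00000027665, chromosome 3, 32397671 to 32468486, plus strand) had 89.0, 102 and 96.3 CPM in 16IC 1 to 3, against 112, 115 and 119 CPM in EIC 1 to 3. The groups did not overlap, but the log2 fold change of -0.27 (SE 0.14) did not pass (edgeR adjusted p = 0.320), and 65.8% of tested genes had a larger absolute fold change. Levels per kilobase of gene length allow a rough comparison between genes, as the deposited length is 1 value per gene, whichever transcripts were expressed. Pik3cb averaged 21.1 ± 7.04 and Pik3ca 10.5 ± 0.71 CPM per kb in 16IC (SD, n = 3 lines). In EIC they averaged 6.92 ± 1.37 for Pik3cb and 12.7 ± 0.37 for Pik3ca (SD, n = 3 lines). Per length, Pik3cb was thus the more abundant of this pair in each 16IC line, and Pik3ca in each EIC line. In 16IC 3 this rests on the lengths used, 7193 bases for Pik3cb and 9088 for Pik3ca, as their CPM were 95.2 and 96.3. Pik3cd, the delta subunit gene best known from leukocytes, added 0.120, 0.918 and 3.37 CPM in 16IC 1 to 3, against 0.808 to 2.35 CPM in EIC.

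The log2 ratio of Pik3ca to Pik3cb per length was -1.45, -1.06 and -0.32 in 16IC 1 to 3 and 0.77, 0.64 and 1.27 in EIC 1 to 3. All 16IC lines lay below all EIC lines, with a difference of means of -1.84. The two-sided exact permutation test over lines gave p = 0.1, the smallest value that 3 lines against 3 allow, or 0.2 after adjustment over the 4 balances computed. Pik3cb held 73.1, 67.3 and 54.3% of the per-length level of Pik3ca, Pik3cb and Pik3cd together in 16IC 1 to 3, and 36.4, 38.4 and 29.2% in EIC 1 to 3. The sum of the 3 catalytic genes, examined after the values were seen, was 36.5, 34.8 and 24.4 CPM per kb in 16IC 1 to 3 and 18.6 to 21.2 CPM per kb in EIC, so that it too did not overlap between the groups.

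**Figure D2:**
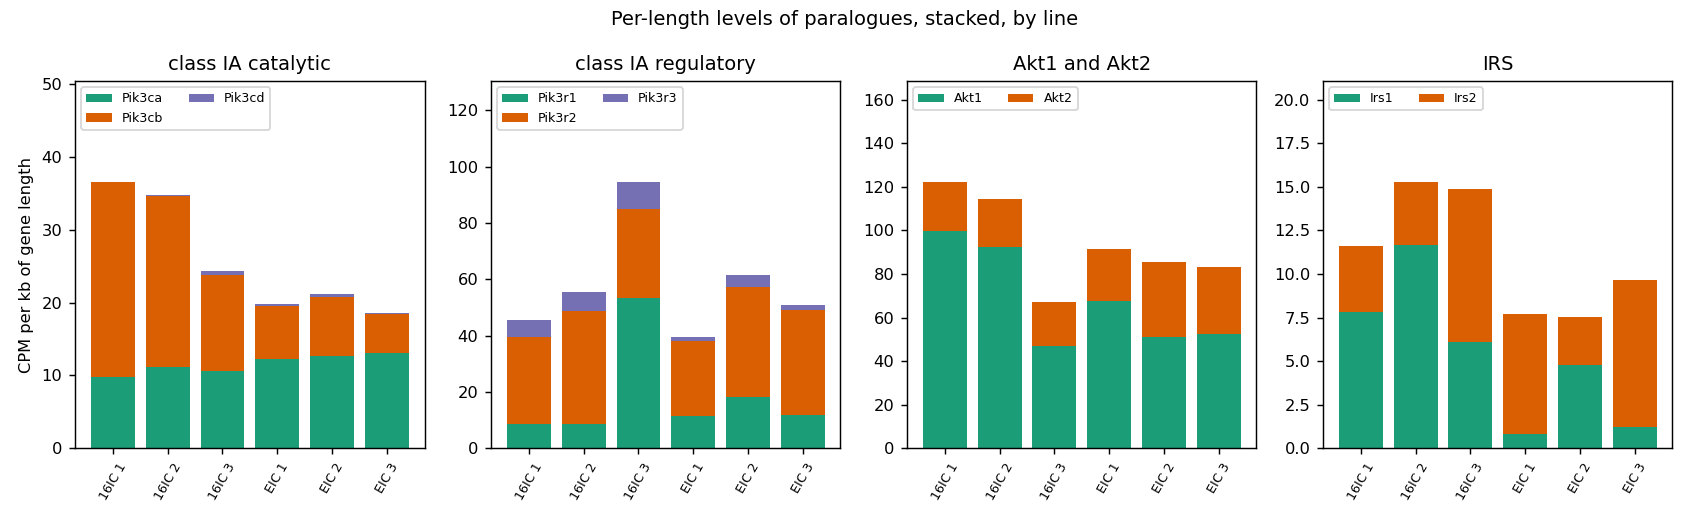
Stacked levels in CPM per kilobase of gene length for the class IA catalytic, class IA regulatory, AKT (Akt1 and Akt2) and IRS genes (vertical axes, linear from 0), with 1 bar per line and 16IC on the left. The Pik3cb segment is larger than the Pik3ca segment in the 3 16IC lines only, the Pik3r1 segment dominates in 16IC 3, and Irs2 outweighs Irs1 in EIC 1, EIC 3 and 16IC 3.

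The regulatory subunits stabilise the catalytic subunits, hold them inactive and dock them on phosphorylated receptors and adaptors. Pik3r3 encodes the short gamma form, which lacks the SH3 domain of the long alpha form. Because Pik3r3 lay higher in 16IC and Pik3r1 has more than 1 annotated start, the 250 bases before their RefSeq starts (GRCm38.p6) are shown. Pik3r3 has more than 1 RefSeq start as well. For Pik3r3 the start nearest to the deposited upstream end of the gene is shown, and for Pik3r1 its outer and its inner start. Capitals mark every match, on either strand, to 6 motifs: GTAAACA of FOXO factors, TGANTCA of AP-1, TGACGTCA of CREB, CACGTG, an E-box, CCAAT, and GGGCGG, a GC box, and no 2 of these motifs overlapped in the windows shown.
Pik3r3, chr4:116221358-116221607, plus strand: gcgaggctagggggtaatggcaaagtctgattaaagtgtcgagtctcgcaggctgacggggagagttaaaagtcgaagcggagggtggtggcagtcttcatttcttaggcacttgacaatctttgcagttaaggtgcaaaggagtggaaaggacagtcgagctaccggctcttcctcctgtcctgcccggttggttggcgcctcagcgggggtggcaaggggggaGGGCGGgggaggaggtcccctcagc
Pik3r1 outer start, chr13:101768218-101768467, minus strand: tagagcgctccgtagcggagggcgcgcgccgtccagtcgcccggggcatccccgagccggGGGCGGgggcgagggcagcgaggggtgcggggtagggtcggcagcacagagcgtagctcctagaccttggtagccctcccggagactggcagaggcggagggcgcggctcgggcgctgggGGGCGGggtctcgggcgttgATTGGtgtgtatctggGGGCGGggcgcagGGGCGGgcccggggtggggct
Pik3r1 inner start, chr13:101692631-101692880, minus strand: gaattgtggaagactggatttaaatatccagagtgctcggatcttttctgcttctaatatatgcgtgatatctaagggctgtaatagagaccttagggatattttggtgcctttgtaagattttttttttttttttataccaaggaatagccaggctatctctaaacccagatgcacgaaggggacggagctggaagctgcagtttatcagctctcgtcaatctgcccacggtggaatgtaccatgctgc
The outer Pik3r1 window was 76.4% G and C and held 4 GC boxes and 1 CCAAT match, while the inner window, 75587 bases further in, was 42.4% G and C and held 0 of the 6 motifs. The median over all 32851 RefSeq windows of this length was 52.4%, and GC boxes were in 32.7% and CCAAT in 33.8% of them. The Pik3r3 window shown held 1 GC box. Of its windows not shown, that of the start 202 bases from the deposited upstream end held 2 CCAAT matches and 1 GC box. That of the start 1129 bases from it held 1 GC box. Counts per gene do not separate transcripts from different starts.

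Pik3r3 (ENSMUSG00000028698, chromosome 4, 116221618 to 116303056, plus strand) had 31.5, 35.1 and 51.0 CPM in 16IC 1 to 3, against 6.79, 22.1 and 10.1 CPM in EIC 1 to 3. All 16IC lines were above all EIC lines, with 16IC 3 highest and EIC 2 the closest of the EIC lines. The log2 fold change was 1.59 (SE 0.48), a 3.01-fold difference that did not pass (edgeR adjusted p = 0.125), and over the alternatives it ran from 1.28 to 2.20 with adjusted p from 0.0194 to 0.318. In the authors' deposited table it is 1.56 with an adjusted p of 0.0300.

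Pik3r1, whose products include the most widely expressed regulatory subunit, was set apart by a single line. Pik3r1 (ENSMUSG00000041417, chromosome 13, 101680563 to 101768217, minus strand) had 88.2, 87.1 and 539 CPM in 16IC 1 to 3, against 114, 184 and 119 CPM in EIC 1 to 3. The lines 16IC 1 and 16IC 2 were below every EIC line and 16IC 3 was 2.93 times the next highest line, EIC 2, a gap that 1.96% of tested genes reached or passed in 16IC 3. With all lines the fitted difference was 0.78 on the log2 scale (SE 0.76, edgeR adjusted p = 0.597), and it came to -0.67 (SE 0.26, adjusted p = 0.152) without 16IC 3, so that its direction rests on that line. Among all tested genes 16IC 3 was the highest of the 6 lines in 25.5%.

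The log2 ratio of Pik3r3 to Pik3r1 per length was -0.56, -0.38 and -2.47 in 16IC 1 to 3 and -3.14, -2.12 and -2.62 in EIC 1 to 3. The value of 16IC 3 lay among the EIC lines, and the difference of means of 1.49 had an exact two-sided permutation p = 0.2, also 0.2 after adjustment over the 4 balances. Pik3r2, the beta regulatory gene, was not among the 8 but was the largest of the 3 per length in 5 lines, at 67.7, 72.5 and 33.2% of their sum in 16IC 1 to 3 and 63.5 to 73.1% in EIC. In 16IC 3 Pik3r1 took that place with 56.6%. The sum of the 3 regulatory genes over the sum of the 3 catalytic genes, chosen after the values were seen, was 1.24, 1.59 and 3.88 in 16IC 1 to 3 and 1.99, 2.90 and 2.73 in EIC 1 to 3. The lines 16IC 1 and 16IC 2 had the lowest ratios of messenger levels and 16IC 3 the highest, with the EIC lines between them.

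**Figure D3:**
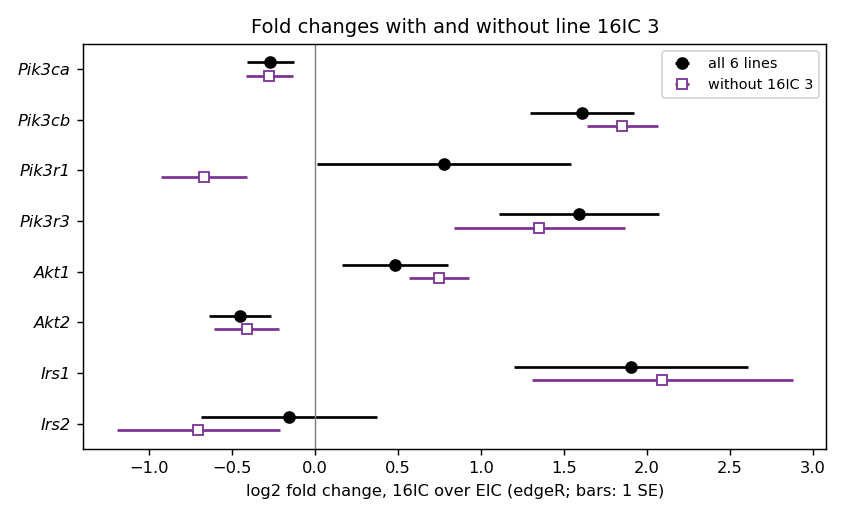
Log2 fold changes of 16IC over EIC (horizontal axis) from edgeR with all 6 lines (black circles) and without 16IC 3 (open squares), with bars of 1 SE. Pik3r1 changes sign, from 0.78 with all lines to -0.67 without 16IC 3, while Pik3cb, Pik3r3 and Irs1 stay above 1.

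Neither AKT gene passed the test, and both had smaller fold changes than Pik3cb, Pik3r3 and Irs1. Akt1, the paralogue tied mainly to growth and survival, was the most abundant of the 8 per length in every line except 16IC 3, where Pik3r1 exceeded it. Akt1 (ENSMUSG00000001729, chromosome 12, 112653821 to 112674884, minus strand) had 409, 379 and 192 CPM in 16IC 1 to 3, against 277, 210 and 216 CPM in EIC 1 to 3. The line 16IC 3 was the lowest of all 6 and the other 16IC lines were the highest, with a log2 fold change of 0.48 (SE 0.32, edgeR adjusted p = 0.427) and, without 16IC 3, 0.75 (SE 0.18, adjusted p = 0.0522).

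Akt2, the paralogue best known for insulin-driven glucose uptake, varied less than Akt1 among the 16IC lines. Akt2 (ENSMUSG00000004056, chromosome 7, 27591552 to 27640826, plus strand) had 160, 158 and 145 CPM in 16IC 1 to 3, against 170, 243 and 218 CPM in EIC 1 to 3. All 16IC lines were below all EIC lines, though 16IC 1 and EIC 1 lay close, and the log2 fold change of -0.45 (SE 0.19) did not pass (edgeR adjusted p = 0.224). The log2 ratio of Akt2 to Akt1 per length was -2.16, -2.07 and -1.20 in 16IC 1 to 3 and -1.50, -0.59 and -0.78 in EIC 1 to 3, with a difference of -0.85 and an exact two-sided permutation p = 0.2.

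The IRS adaptors carry signals from the insulin and IGF receptors to PI3K, and Irs2 is a textbook target that FOXO factors raise when AKT is inactive. Their windows before the RefSeq start (GRCm38.p6) are shown because the 2 genes differed in their pattern over the lines while each window held 1 E-box, with capitals as above.
Irs1, chr1:82291440-82291689, minus strand: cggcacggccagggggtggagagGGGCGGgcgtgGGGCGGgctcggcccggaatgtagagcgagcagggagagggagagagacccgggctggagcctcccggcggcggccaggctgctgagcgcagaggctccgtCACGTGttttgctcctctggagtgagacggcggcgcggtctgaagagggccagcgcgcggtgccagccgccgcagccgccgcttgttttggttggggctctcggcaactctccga
Irs2, chr8:11008930-11009179, minus strand: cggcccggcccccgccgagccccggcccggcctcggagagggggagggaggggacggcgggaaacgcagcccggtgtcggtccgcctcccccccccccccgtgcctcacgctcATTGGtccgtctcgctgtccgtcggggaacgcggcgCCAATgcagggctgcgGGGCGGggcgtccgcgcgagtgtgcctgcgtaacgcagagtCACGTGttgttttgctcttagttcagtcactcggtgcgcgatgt
The E-box CACGTG lay at bases -115 to -110 from the Irs1 start and -44 to -39 from the Irs2 start, and 6.02% of all windows held one. GC boxes numbered 2 in Irs1 and 1 in Irs2, and CCAAT matched 2 times in Irs2. The FOXO letters GTAAACA were in neither window and in 3.17% of all windows. The AP-1 letters were in 6.75% and the CREB letters in 1.55% of all windows, and neither was in the 5 windows printed here. Of the windows not printed, the nearest of Pik3ca held 1 AP-1 match and the nearest of Akt1 held 1 FOXO match.

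Irs1 had the widest range of the 8 genes, 3.82 on the log2 scale over the 6 lines. Irs1 (ENSMUSG00000055980, chromosome 1, 82233101 to 82291416, minus strand) had 71.3, 107 and 55.6 CPM in 16IC 1 to 3, against 7.53, 43.8 and 11.0 CPM in EIC 1 to 3. All 16IC lines were above all EIC lines, but EIC 2 came close to 16IC 3. The log2 fold change was 1.90 (SE 0.71), a 3.74-fold difference that did not pass (edgeR adjusted p = 0.181), and without EIC 2 it was 3.06 and passed (adjusted p = 0.0451). In the authors' deposited table it is 1.88 with an adjusted p of 0.0568.

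Irs2 (ENSMUSG00000038894, chromosome 8, 10984681 to 11008458, minus strand) had 24.0, 22.8 and 55.5 CPM in 16IC 1 to 3, against 43.4, 17.2 and 53.3 CPM in EIC 1 to 3. The groups overlapped throughout, with 16IC 3 highest and EIC 2 lowest, and the fitted difference was -0.16 on the log2 scale (SE 0.53, edgeR adjusted p = 0.890). The log2 ratio of Irs2 to Irs1 per length was -1.04, -1.69 and 0.53 in 16IC 1 to 3 and 3.06, -0.82 and 2.80 in EIC 1 to 3. EIC 2 lay among the 16IC lines, and the difference of means of -2.42 had an exact two-sided permutation p = 0.2. The summed level of both genes per length was 11.6, 15.3 and 14.9 CPM per kb in 16IC 1 to 3 and 7.69, 7.52 and 9.63 CPM per kb in EIC 1 to 3. The sum, looked at after the values were seen, did not overlap between the groups, although Irs2 alone did.

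The genes most alike to the members with the widest range were found by Pearson correlation of log2 CPM over the 6 lines, among 10344 tested genes that averaged at least 5 CPM. With so many candidates and 6 points, high values are given as a description. The correlation does not take the size of the differences into account. For Irs1 they were Nenf (r = 0.993), Hgsnat (0.993) and Optn (0.992). Nenf ran only from 40.3 to 56.8 CPM over the 6 lines and Optn from 29.5 to 44.1 CPM. Hgsnat, a lysosomal acetyltransferase gene, had 93.4, 111 and 76.2 CPM in 16IC 1 to 3, against 30.8, 79.3 and 41.0 CPM in EIC 1 to 3, with EIC 2 above 16IC 3. For Pik3r3 they were Clmn (0.999), Agrn (0.992) and Gtf3c3 (0.989). Clmn ran from 0.0570 to 68.4 CPM and Gtf3c3 only from 27.5 to 43.2 CPM. Agrn, which encodes the basement-membrane proteoglycan agrin, had 1422, 1635 and 1844 CPM in 16IC 1 to 3, against 413, 925 and 559 CPM in EIC 1 to 3, the same order of lines as Pik3r3.

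Around the core, 99 further pathway genes were listed in 7 groups, and 86 of them were tested. edgeR called 4 of the 86 (4.65%, against 2.45% of all tested genes), 2 higher and 2 lower in 16IC. The median log2 fold change over the 86 was 0.07, with 45 positive and 41 negative. Their 16IC lines lay all above EIC in 17.4% and all below in 17.4%, close to the 17.2 and 14.2% of all tested genes. The 4 calls were lost when EIC 1, EIC 3, 16IC 1 or 16IC 2 was left out, where edgeR called 0 of the 86 and 0 to 5 genes in all, and when 16IC 1 and 16IC 2 were summed to 1 sample, where it called 0 in all. That of Socs1 was also lost without EIC 2 (adjusted p = 0.0548). Without 16IC 3 all 4 were called, in a fit where edgeR called 13.4% of genes.

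**Figure D4:**
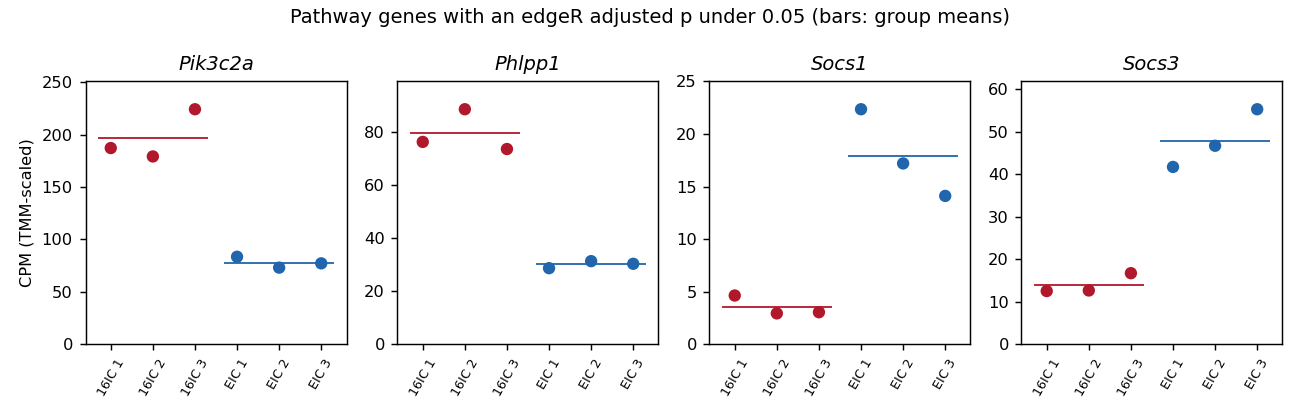
Levels in CPM (vertical axes, linear from 0) of the 4 pathway genes that edgeR called, with 1 point per line, 16IC in red and EIC in blue, and a bar at each group's mean. Pik3c2a and Phlpp1 lie higher in every 16IC line and Socs1 and Socs3 lower, and 16IC 3 sits with the other 16IC lines in all 4 panels.

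Among 7 tested genes of other PI3K subunits edgeR called 1 (14.3%, against 2.45% of all tested genes), Pik3c2a, a class II kinase that works on endosomes and at clathrin-coated sites. Pik3c2a had 187, 179 and 224 CPM in 16IC 1 to 3, against 83.4, 73.1 and 77.2 CPM in EIC 1 to 3. It rose by 1.34 on the log2 scale (SE 0.17, edgeR adjusted p = 0.0360), with 16IC 3 the highest. Pik3r5, the adaptor subunit of class IB PI3K, named after its values were seen, had 5.12, 11.3 and 21.2 CPM in 16IC 1 to 3, against 86.2, 64.5 and 118 CPM in EIC 1 to 3. The groups were far apart, but edgeR did not call it with all lines (log2 fold change -2.83, SE 0.55, adjusted p = 0.0582). limma-voom and DESeq2 called it with all lines, and edgeR did without 16IC 3 (-3.44, adjusted p = 0.0164), where it called 13.4% of genes.

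Among 19 tested phosphatases and brakes edgeR called 3 (15.8%, against 2.45% of all tested genes). Phlpp1, a phosphatase that takes the activating phosphate off AKT, had 76.4, 88.8 and 73.8 CPM in 16IC 1 to 3, against 28.7, 31.4 and 30.4 CPM in EIC 1 to 3. It rose by 1.40 (log2, SE 0.16, edgeR adjusted p = 0.0342), with a narrow spread within each group. Socs1 and Socs3 encode feedback inhibitors of cytokine receptors that can also target IRS proteins. Socs1 had 4.64, 2.94 and 3.05 CPM in 16IC 1 to 3, against 22.4, 17.2 and 14.1 CPM in EIC 1 to 3, and it fell by 2.33 on the log2 scale (SE 0.34, edgeR adjusted p = 0.0390). Socs3 had 12.5, 12.7 and 16.7 CPM in 16IC 1 to 3, against 41.7, 46.7 and 55.3 CPM in EIC 1 to 3, and it fell by 1.78 on the log2 scale (SE 0.22, edgeR adjusted p = 0.0360).

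In the other 5 groups edgeR called 0 genes. The counts below stand against 22.7% of all tested genes at an unadjusted p under 0.05, 2.1% called by limma-voom and 15.3% called by DESeq2. Genes said below to pass without 16IC 3 stand against 13.4% of genes called by edgeR in that fit. The 16IC lines left in it, 16IC 1 and 16IC 2, had a Spearman correlation of 0.989, so their spread is that of very similar lines. Of 13 tested receptors and adaptors 6 had an unadjusted p under 0.05, limma-voom called 0 and DESeq2 called 5 (Insr, Erbb3, Gab1, Sh2b1 and Sh2b2). Insr, the insulin receptor gene, had 129, 192 and 137 CPM in 16IC 1 to 3, against 72.9, 66.3 and 80.2 CPM in EIC 1 to 3 (log2 fold change 1.06, edgeR adjusted p = 0.0590). Its groups did not overlap, as those of Irs1 did not, and it passed without 16IC 3 (1.13, adjusted p = 0.0310). The adaptor gene Sh2b1 had log2 fold change 0.78 (edgeR adjusted p = 0.0772) and its relative Sh2b2 -1.52 (edgeR adjusted p = 0.0618), and both passed without 16IC 3 (0.86 and -1.42, adjusted p = 0.0348 and 0.0456). Erbb3, the receptor with several docking sites for PI3K, had 161, 172 and 6.42 CPM in 16IC 1 to 3, against 12.0, 5.53 and 16.1 CPM in EIC 1 to 3. The lines 16IC 1 and 16IC 2 stood far above the EIC lines and 16IC 3 lay within them, with a log2 fold change of 3.33 (edgeR adjusted p = 0.154) that passed without 16IC 3 (3.89, adjusted p = 0.0112).

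Of 6 tested genes in the list around AKT activation, 0 had an unadjusted p under 0.05, and limma-voom and DESeq2 called 0. The mTOR complex genes Mlst8, Rictor and Mapkap1 had log2 fold changes of 0.53, 0.24 and 0.17 (edgeR adjusted p = 0.287, 0.409 and 0.585). Of 13 genes of the mTOR complex 1 arm, 4 had an unadjusted p under 0.05, limma-voom called 0 and DESeq2 called 3 (Deptor, Eif4e and Tsc2), against 22.7, 2.1 and 15.3% of all tested genes. Deptor, an inhibitor of mTOR, had 2.17, 3.79 and 21.5 CPM in 16IC 1 to 3, against 166, 67.2 and 267 CPM in EIC 1 to 3. The groups did not overlap, and the log2 fold change of -4.19 (SE 1.04) was not called by edgeR (adjusted p = 0.0884). With 16IC 3 left out it was -5.80 and passed (adjusted p = 0.0156). The cap-binding factor gene Eif4e had 93.7, 85.5 and 69.1 CPM in 16IC 1 to 3, against 149, 149 and 152 CPM in EIC 1 to 3 (log2 fold change -0.86, edgeR adjusted p = 0.0592; without 16IC 3 -0.75, adjusted p = 0.0276). Tsc2, which restrains mTOR complex 1, had a log2 fold change of 0.55 (edgeR adjusted p = 0.109). Of 12 AKT substrates, 2 had an unadjusted p under 0.05, limma-voom called 0 and DESeq2 called 1, Bad, against 22.7, 2.1 and 15.3% of all tested genes. Bad, a cell-death gene, had a log2 fold change of -0.65 (edgeR adjusted p = 0.117). Pfkfb2, a regulator of glycolysis, had 0.91 and Tbc1d4, which AKT phosphorylates in glucose uptake, had -0.83 (edgeR adjusted p = 0.151 and 0.401). Without 16IC 3 Tbc1d4 was -1.60 and passed (edgeR adjusted p = 0.0291).

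The FOXO target list held 21 tested genes beside Irs2, of which Insr, Erbb3, Pik3ip1, Cdkn1b and Rictor stood in another list too. edgeR called 0 of them, 3 had an unadjusted p under 0.05 (Insr, Ccng2 and Erbb3), limma-voom called 0 and DESeq2 called 2 (Insr and Erbb3), against 22.7, 2.1 and 15.3% of all tested genes. Without 16IC 3 edgeR called 5 (Insr, Erbb3, Klf2, Sod2 and Txnip), against 13.4%. Their median log2 fold change was 0.24, with 15 positive. Looked at by line after the values were seen, 16 of the 21 (76.2%) were higher in 16IC 3 than in both other 16IC lines, against 44.3% of all tested genes, and 8 (38.1%) were at least 2 times the higher of those lines, against 13.9%. Among the other lists, the first share was 71.4% for other PI3K subunits (5 of 7 genes) and 16.7 to 50% for the rest. The second share was 0 to 15.4% in those lists. No test was made of these shares, which compare 1 line with 2.

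Fbxo32, a ubiquitin ligase gene known from muscle wasting, had 18.7, 22.3 and 204 CPM in 16IC 1 to 3, against 13.2, 22.2 and 17.7 CPM in EIC 1 to 3. Pik3ip1, which encodes a membrane inhibitor of PI3K, had 25.6, 27.4 and 126 CPM in 16IC 1 to 3, against 14.9, 21.7 and 35.0 CPM in EIC 1 to 3. In both genes 16IC 3 exceeded all 5 other lines, as it did in Pik3r1. Txnip, an inhibitor of glucose uptake, had 37.6, 77.0 and 500.4 CPM in 16IC 1 to 3, against 397, 246 and 639 CPM in EIC 1 to 3. Klf2, a transcription factor gene, had 1.14, 1.47 and 16.1 CPM in 16IC 1 to 3, against 13.7, 5.71 and 31.8 CPM in EIC 1 to 3. In Txnip and Klf2 it was 16IC 1 and 16IC 2 that lay below the EIC lines, and 16IC 3 lay within them. The remaining 4 of the 8 were Sesn1, Sod2, Tnfsf10 and Pdk4. They had 9.60 to 94.1 CPM in 16IC 3 and 0.428 to 39.5 CPM in the other 16IC lines. In 16IC 3 Sesn1 (42.6 CPM) and Tnfsf10 (9.60 CPM) lay within the EIC lines (20.2 to 44.5 and 2.98 to 11.3 CPM). Sod2 (94.1 CPM) and Pdk4 (81.3 CPM) lay above the EIC lines (62.3 to 64.6 and 0 to 17.3 CPM). Not all targets were higher in 16IC 3: of the 16IC lines, it had the least Bbc3 (17.6 CPM), Gadd45a (5.45 CPM), Rictor (69.5 CPM) and Erbb3. Insr in 16IC 3 lay between the other 16IC lines. Sesn3, counted as higher, was nearly equal in 16IC 3 (101.7 CPM) and 16IC 1 (101.1 CPM). The FOXO genes themselves had log2 fold changes of 0.25 (Foxo1), 0.14 (Foxo3) and -0.21 (Foxo4), none of them called by edgeR (adjusted p = 0.738, 0.756 and 0.619), and Foxo1 was 32.3, 36.5 and 71.7 CPM in 16IC 1 to 3, against 31.1 to 51.9 CPM in EIC. The sum of the mesenchymal list, most of it Vim, was also higher in 16IC 3 (2222 CPM) than in 16IC 1 and 16IC 2 (125 and 206 CPM). Its part in these values was not tested.

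**Figure D5:**
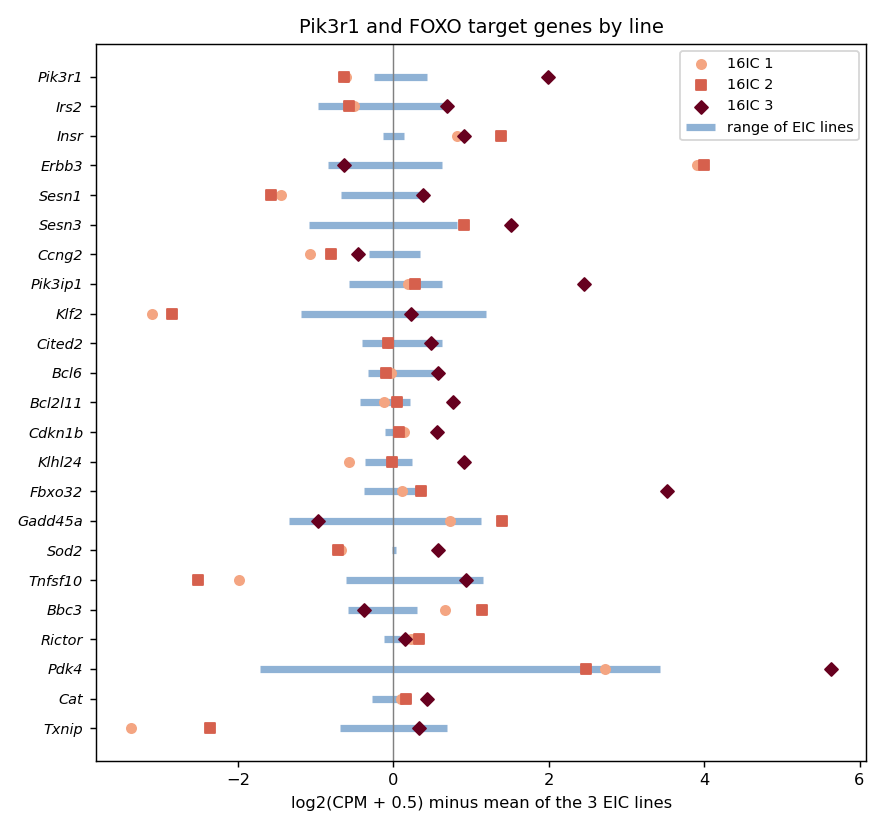
Log2(CPM + 0.5) minus the mean of the 3 EIC lines (horizontal axis) for Pik3r1, Irs2 and 21 further FOXO target genes, with a symbol for each 16IC line and a blue bar over the range of the EIC lines. For 16 of the 21 targets 16IC 3 lies to the right of both other 16IC lines, furthest for Pdk4, Fbxo32 and Pik3ip1 against EIC. Pdk4 had 0 counts in EIC 1 and EIC 3, so its distance depends on the 0.5 CPM added.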

How the data were processed

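RNA was extracted with RNeasy and libraries were made with NEBNext Ultra II, per the labels' protocols. The submitters' processing notes list limma, edgeR, HTSeq, STAR and Trimmomatic without roles or versions, and the build GRCm38 (mm10). The authors deposited raw counts per gene, which were the basis of all tests. The authors also deposited a normalised signal, the count divided by 1 size factor per library, which entered no test. The FPKM values deposited by the authors are counts divided by gene length and library size, and served in 1 alternative. The log2 fold changes deposited by the authors were computed by them as 16IC over EIC. The p-values deposited by the authors, raw and adjusted, were computed by them with a test that no source used here names.

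Counts were tested with edgeR 4.0.16 in R 4.3.3 (filterByExpr with a minimum count of 10, TMM factors, quasi-likelihood fit of 16IC over EIC on all 6 lines, Benjamini-Hochberg adjustment over 13698 genes, threshold 0.05), checked on simulated data. CPM is the count over the TMM-scaled library. CPM per kb divides by the deposited gene length, and ratios within a line used a pseudocount of 0.5 counts. Alternatives were other size factors and filters, a robust fit, limma-voom (limma 3.58.1), DESeq2 1.42.0, leaving out each line, and summing 16IC 1 and 16IC 2.

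Members and gene lists were chosen with earlier results of these data known. Beside the 8 genes, the text names each list's called genes or, with none, its 3 smallest p-values, and the 3 genes most alike to the 2 members of widest range. Other genes named, such as Pik3r2, Pik3r5 and the FOXO genes and targets given by line, were chosen after their values were seen. Promoter sequences are from RefSeq (GRCm38.p6), in which all 8 genes matched. Some genes of the lists are counted but not reported here by name.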

Additional observations from a re-analysis of the deposited data

How the results depend on the processing

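Without a filter on low counts edgeR called 223 genes, DESeq2 called 2098, and with 16IC 1 and 16IC 2 summed to 1 sample 0 were called (2253 at an unadjusted p under 0.05; the other tools were not run on that sum). Leaving out 1 line gave 0 to 1913 called genes, 0 without 16IC 2, EIC 1 or EIC 3, 5 without 16IC 1, 282 without EIC 2 and 1913 without 16IC 3, and the cause was not tested. Of the 8 genes DESeq2 called 3 and the fits without 1 line 0 to 1. Of the pathway lists DESeq2 called 15, the summed fit 0 and the fits without 1 line 0 to 17. The log2 fold change of Irs2 was 0.052 in the summed fit and ran from -0.70 to 0.15 without 1 line, and that of Pik3r1 from -0.67 (without 16IC 3) to 1.17; the other 6 of the 8 genes and the 4 called pathway genes kept their sign in all 14 alternatives. The 4 balances kept their sign with a pseudocount of 5 counts, with the deposited FPKM and without each line. No paired analysis was possible because the replicate numbers only follow the order of the samples. With 3 lines a group the exact test cannot go below 0.1. Each of the 8 genes had at least 119 counts in each line.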
